A study of Mus musculus with 12 samples.

Results

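The genes considered were those of platelet-derived growth factor (PDGF) signalling: the receptors Pdgfra and Pdgfrb and the ligands Pdgfa, Pdgfb and Pdgfc. They were taken by gene name, as every probe set whose single symbol in the platform's probe table was one of these 5 genes. These are 5 of 18193 genes with such a probe set, and they gave 11 of the 45037 probe sets that were not array controls, with 3 for Pdgfra and 2 for each of the other genes. A probe set is a group of short probes read out as a single value, and the probe sets of a gene are given brightest first. Expression was measured on 12 oligonucleotide arrays, in 4 groups of 3, from cells of mouse embryos at embryonic day 8.0 on a mixed C57BL/6 and FVB background. The groups were ER71 mutant EYFP-positive, ER71 wild-type EYFP-positive, ER71 mutant EYFP-negative and ER71 wild-type EYFP-negative cells, called mutant positive, wild-type positive, mutant negative and wild-type negative cells here. ER71 is now named Etv2 and encodes an ETS-family transcription factor needed for blood and endothelial development, and EYFP is a yellow fluorescent protein used for sorting. All 4 groups came from a line that the labels name ER71 EYFP, were released with trypsin and sorted, and had their RNA amplified in 2 rounds. The labels give neither the sequence that drives EYFP, nor the mutated part of ER71, nor the embryos or pools behind the 3 samples of a group. P-values therefore cover only the variation among these samples, and how much of that is technical is not known.

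PDGF ligands are secreted as paired chains that bind receptor tyrosine kinases and make them dimerise. PDGF receptor alpha, encoded by Pdgfra, binds the A, B and C chains and is known in the early embryo from mesoderm and mesenchyme, whereas PDGF receptor beta, encoded by Pdgfrb, binds the B chain and is known from mesenchyme and from the mural cells around vessels. Endothelial cells are a known source of the B chain, the A chain comes largely from epithelia, and the C chain has to be cleaved outside the cell before it can bind.

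Array medians lay between 6.98 and 7.06 log2, and 25th percentiles between 5.62 and 5.69. Across probe sets, which are not independent replicates, the correlation of 2 arrays was 0.981 to 0.991 within groups and 0.957 to 0.991 between groups. The targeted gene Etv2 had log2 values of 7.40, 7.26 and 7.28 in mutant positive cells, against 10.72, 10.70 and 11.36 in wild-type positive cells. The wild-type arrays numbered 1 stood apart through Y-linked Eif2s3y, at 10.81 in positive and 11.23 in negative cells, with no other array above 4.53. Mutant positive array 1 stood apart through Afp, known from yolk sac endoderm, with 11.98 there and 5.02 and 4.03 in the same group. The negative groups were uneven in the primitive erythroid marker Hbb-y. It had 5.01, 11.55 and 4.71 in mutant negative cells, against 10.80, 5.59 and 11.94 in wild-type negative cells. The log2 ratio of 3′ to 5′ actin probe sets, which grows as RNA degrades, ranged over 1.40 to 1.62 in mutant positive cells and 1.54 to 3.05 in wild-type positive cells, and over 1.87 to 2.72 in mutant negative cells and 1.57 to 3.14 in wild-type negative cells. Its part in the results was not tested. In such sorted bulk samples, fewer cells of a type and less RNA per cell cannot be told apart.

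Pdgfra had the largest difference between the positive groups among the 11 probe sets, and its promoter is shown because Etv2 belongs to the ETS family, whose members bind around the letters GGAA. The stretch is chr5:75152001-75152300 on the plus strand of GRCm38.p6, from RefSeq, with 250 bases before and 50 after the annotated start. Capitals mark each GGAA or its reverse complement TTCC.
Pdgfra promoter: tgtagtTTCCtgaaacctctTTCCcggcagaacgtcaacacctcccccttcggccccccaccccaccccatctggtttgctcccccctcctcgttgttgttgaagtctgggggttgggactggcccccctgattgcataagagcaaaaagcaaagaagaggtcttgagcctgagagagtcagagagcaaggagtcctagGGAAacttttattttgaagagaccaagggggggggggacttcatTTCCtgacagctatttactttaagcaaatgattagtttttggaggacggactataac
It held 4 matches to GGAA, 1 on the plus and 3 on the minus strand. Of 32851 promoters of the same length, 96% held at least 1 match on either strand and 46.3% held at least as many as Pdgfra. The longer form GGAAGT, which contains GGAA, had 0 matches there and was found in 23.8% of promoters. The letters GATAA, the core bound by Gata factors, had 0 matches there and were found in 25.4% of promoters. The E-box letters CANNTG had 2 matches, where 72.3% of promoters held at least 1 and 39.6% at least as many as Pdgfra. These are matches of letters in this window and not measured binding sites. Promoters were found for 3 of the 5 genes in the table, and that of Pdgfra is the one printed.

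Among the receptors, Pdgfra was higher in mutant than in wild-type positive cells, which compares the sorted cells with and without intact Etv2. At its brightest probe set, 1421917_at, the log2 values were 12.53, 12.40 and 13.02 in mutant positive cells, against 10.58, 10.85 and 10.74 in wild-type positive cells. Mutant negative cells had 12.00, 11.79 and 11.88, against 11.70, 11.77 and 12.22 in wild-type negative cells. The 3 mutant positive arrays were thus the highest of the 12 and the 3 wild-type positive arrays the lowest, while the negative groups lay between them and overlapped.

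The group means of Pdgfra at this probe set were 12.65 ± 0.33 (SD, n = 3) for mutant positive cells, 10.72 ± 0.14 for wild-type positive cells, 11.89 ± 0.11 for mutant negative cells and 11.90 ± 0.28 for wild-type negative cells. Mutant positive cells exceeded wild-type positive cells by 1.93 ± 0.18 log2 (SE), or 3.81-fold (limma, adjusted p = 9.66e-05). Of all probe sets tested, 41 had a larger rise in that comparison. In wild-type embryos, positive cells fell below negative cells by 1.18 ± 0.18 log2, 2.26-fold (limma, adjusted p = 0.00297). In mutants the sort difference had the other sign, 0.76 ± 0.18 log2, with positive cells above negative cells on every array, and missed the threshold of adjusted p under 0.05 (limma, adjusted p = 0.0516). Mutant and wild-type negative cells differed by -0.01 log2 (95% interval -0.40 to 0.39).

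The sort difference of Pdgfra was itself compared between the genotypes. Taken by replicate number, positive minus negative cells gave 0.52, 0.61 and 1.14 log2 in mutants, against -1.12, -0.92 and -1.48 log2 in wild types. The difference between these differences, the interaction, was 1.93 ± 0.25 log2 (limma, adjusted p = 0.00265), with 83 probe sets showing a larger positive one. The mutant replicate numbers behaved as pairs of positive and negative arrays. A fixed block for replicate number within genotype was also fitted, and it blocked the wild-type numbers too. With it, the mutant sort difference of Pdgfra passed the threshold at 1421917_at (limma, adjusted p = 0.0395). It also passed at the next brightest probe set, 1438946_at (0.0492). Over all alternatives it passed under 9 of 26 at 1421917_at, both filters on dim probe sets and centring on array medians among them (adjusted p 0.018 to 0.17 over the 26), and under 4 of 25 at 1438946_at (0.0371 to 0.349).

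The second probe set of Pdgfra, 1438946_at, had the same order of groups. Its values were 10.33, 9.94 and 9.97 in mutant positive cells, against 7.90, 8.86 and 8.42 in wild-type positive cells. Those of the negative fractions were 9.39, 9.46 and 8.98 in mutant cells, against 9.47, 9.59 and 9.72 in wild-type cells. Mutant positive arrays were again above and wild-type positive arrays below the other 9. The differences were 1.69 ± 0.22 log2 for mutant against wild-type positive cells (3.22-fold; limma, adjusted p = 0.00139), -1.20 ± 0.22 for wild-type positive against negative cells (0.00989), 0.81 ± 0.22 for mutant positive against negative cells (0.104) and 2.01 ± 0.31 for the interaction (0.00892). The wild-type sort difference did not pass at this probe set without both wild-type arrays numbered 1 (-1.02 log2, adjusted p = 0.0552).

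The dimmest probe set of Pdgfra, 1421916_at, lay near the array medians. It had 7.26, 7.06 and 7.08 in mutant positive cells, against 6.47, 6.40 and 6.07 in wild-type positive cells, and these groups did not overlap. Mutant negative cells had 7.28, 6.91 and 6.30, against 6.68, 6.54 and 6.88 in wild-type negative cells, and these overlapped. Mutant positive cells were higher than wild-type positive cells by 0.82 ± 0.21 log2, which did not pass (limma, adjusted p = 0.0597). It passed under 5 of 24 alternative settings, with adjusted p from 0.0136 to 0.171. The 3 probe sets of Pdgfra thus had the same sign in this comparison, in the wild-type sort difference and in the mutant sort difference, with the smallest size at the dimmest. At 1421916_at the wild-type sort difference was -0.38 ± 0.21 log2 (limma, adjusted p = 0.474) and the mutant one 0.30 ± 0.21 log2 (0.714). Its interaction was 0.69 ± 0.30 log2 (limma, adjusted p = 0.497), so none of these passed.

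**Figure D1:**
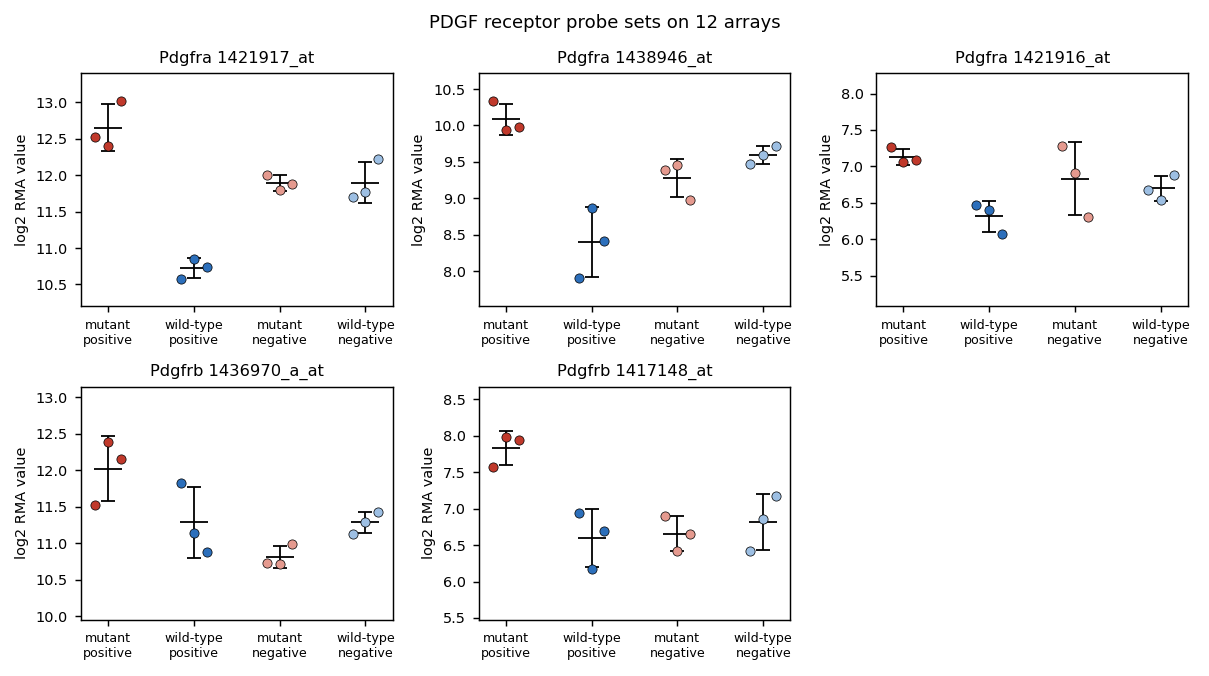
Log2 RMA values (vertical axis) of the 3 Pdgfra and 2 Pdgfrb probe sets in the 4 groups (horizontal axis), 1 point per array with replicates 1 to 3 from left to right, and mean ± SD as bars. Each panel has its own axis range. At both bright Pdgfra probe sets the mutant positive arrays are above and the wild-type positive arrays below the other 9, and at Pdgfrb 1417148_at the mutant positive arrays, at 7.57 to 7.99, are above all others.

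Pdgfrb, the receptor known from mural cells, was higher in mutant positive than in mutant negative cells at both of its probe sets. At the brighter one, 1436970_a_at, the values were 11.52, 12.39 and 12.16 in mutant positive cells, against 11.83, 11.15 and 10.89 in wild-type positive cells. Mutant negative cells had 10.73, 10.71 and 10.98, against 11.13, 11.30 and 11.43 in wild-type negative cells. Positive and negative cells did not overlap in mutants, whereas in wild types the positive arrays lay on both sides of the negative ones.

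Within mutants the rise of Pdgfrb at 1436970_a_at was 1.22 ± 0.25 log2, or 2.32-fold (limma, adjusted p = 0.0302). In wild types positive and negative cells differed by 0.00 log2 (95% interval -0.56 to 0.56). Mutant positive cells were above wild-type positive cells by 0.74 ± 0.25 log2, which did not pass (adjusted p = 0.148), with wild-type positive array 1 at 11.83 inside the mutant range. Without that array the difference was 1.01 log2 and passed (adjusted p = 0.0405). The call within mutants was lost without mutant positive array 2 or 3, without any 1 of the mutant negative arrays, or without wild-type negative array 2 (adjusted p 0.0522 to 0.12), and also with only the 2 groups in the fit (0.0788) and with the replicate number over all arrays as a block (0.0595).

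The dimmer Pdgfrb probe set, 1417148_at, lay near the array medians in 3 groups. It had 7.57, 7.99 and 7.94 in mutant positive cells, against 6.94, 6.17 and 6.69 in wild-type positive cells. The negative fractions had 6.90, 6.42 and 6.65 in mutants, against 6.41, 6.86 and 7.18 in wild types. The 3 mutant positive arrays were above all other arrays, and the other 3 groups overlapped. Mutant positive cells rose by 1.23 ± 0.24 log2 over wild-type positive cells (2.35-fold; limma, adjusted p = 0.0135) and by 1.18 ± 0.24 log2 over mutant negative cells (adjusted p = 0.0245). The first call was lost without mutant positive array 2 (adjusted p = 0.0534) and with only the 2 groups in the fit (0.0517), and the second without mutant positive array 2 or 3 or mutant negative array 2 or 3 (0.0819 to 0.1). These comparisons share the mutant positive arrays and are not independent of each other.

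For Pdgfrb the sort difference did not pass as different between the genotypes at either probe set. The interaction was 1.22 ± 0.36 log2 at 1436970_a_at (limma, adjusted p = 0.199) and 1.40 ± 0.33 log2 at 1417148_at (adjusted p = 0.0876), so both had the sign seen for Pdgfra without passing. With the probe sets of each gene averaged before the fit, the Pdgfrb interaction was 1.31 ± 0.30 log2 and passed (adjusted p = 0.0429). By replicate number, positive minus negative cells at 1417148_at gave 0.67, 1.56 and 1.29 log2 in mutants, against 0.53, -0.69 and -0.49 log2 in wild types. The wild-type arrays numbered 1 thus differed in the other direction from those numbered 2 and 3. Without both wild-type arrays numbered 1 the interaction at 1417148_at was 1.77 log2 and passed (adjusted p = 0.0356). The order of Pdgfrb levels was mutant positive first at both probe sets, and at 1417148_at the neighbours below it did not separate from each other.

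Among the ligands, no probe set passed the threshold in any of the 5 comparisons. Pdgfb, the B chain known from endothelium, had its highest mean in wild-type positive cells at its brighter probe set, 1450414_at (7.40 ± 0.29 log2, SD, n = 3). Its values were 6.87, 6.98 and 6.99 in mutant positive cells, against 7.60, 7.07 and 7.53 in wild-type positive cells. Mutant negative cells had 7.04, 7.09 and 6.85, against 6.98, 7.02 and 6.80 in wild-type negative cells. The wild-type positive arrays did not overlap with the mutant positive or the wild-type negative ones, though array 2, at 7.07, lay close to them and below mutant negative array 2.

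For Pdgfb at 1450414_at, mutant positive minus wild-type positive cells was -0.45 ± 0.14 log2 (95% interval -0.76 to -0.14; limma, adjusted p = 0.108). Wild-type positive minus wild-type negative cells was 0.46 ± 0.14 log2 (95% interval 0.15 to 0.77; adjusted p = 0.109). Without wild-type positive array 2 both passed, at -0.62 log2 (adjusted p = 0.0155) and 0.63 log2 (0.012). These comparisons share the wild-type positive arrays. The other probe set, 1450413_at, stayed between 6.02 and 6.48 on all arrays, with differences of -0.07 to 0.07 log2 in the 4 comparisons of groups. Pdgfb lay near or below the array medians at both probe sets, and no detection calls were used here.

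Pdgfa, the A chain that binds PDGF receptor alpha, did not pass at either probe set in any comparison. At 1449187_at the values were 8.92, 9.36 and 10.33 in mutant positive cells, against 9.52, 9.61 and 10.02 in wild-type positive cells. Mutant negative cells had 10.60, 10.88 and 10.16, against 10.31, 10.52 and 10.27 in wild-type negative cells. The wild-type positive arrays were all below the wild-type negative ones, whereas mutant positive array 3, at 10.33, lay inside the mutant negative range.

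The wild-type sort difference of Pdgfa was -0.65 ± 0.31 log2 at 1449187_at (limma, adjusted p = 0.37) and -0.60 ± 0.30 at 1418711_at (adjusted p = 0.395). In mutants it was -1.01 ± 0.31 log2 at 1449187_at (adjusted p = 0.158), and it passed without mutant positive array 3 (-1.40 log2, adjusted p = 0.0134). At 1418711_at mutant positive arrays had 8.04, 9.29 and 9.31, against 8.39, 8.56 and 8.20 on wild-type positive arrays. The low value belonged to mutant positive array 1, the array with high Afp. Without it, mutant exceeded wild-type positive cells by 0.92 log2 at this probe set (adjusted p = 0.0231), against 0.50 ± 0.30 with it (adjusted p = 0.437). The part of the yolk sac endoderm signal in these values was not tested.

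Pdgfc, the C chain, had its highest means in wild-type negative cells, 10.03 ± 0.38 and 8.19 ± 0.30 log2 at its 2 probe sets (SD, n = 3), and none of its differences passed. At 1419123_a_at the values were 9.996, 9.31 and 8.72 in mutant positive cells, against 9.41, 9.76 and 8.87 in wild-type positive cells. Mutant negative cells had 9.36, 9.50 and 8.75, against 10.26, 9.59 and 10.23 in wild-type negative cells. The positive groups covered the same range, and the mutant negative arrays were all below the wild-type negative ones. That last difference was -0.82 ± 0.34 log2 (95% interval -1.58 to -0.07; limma, adjusted p = 0.976). Mutant and wild-type positive cells differed by -0.01 log2, with a 95% interval of -0.76 to 0.75. The dimmer probe set, 1449351_s_at, gave -0.37 and 0.15 log2 for the same pairs of groups.

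**Figure D2:**
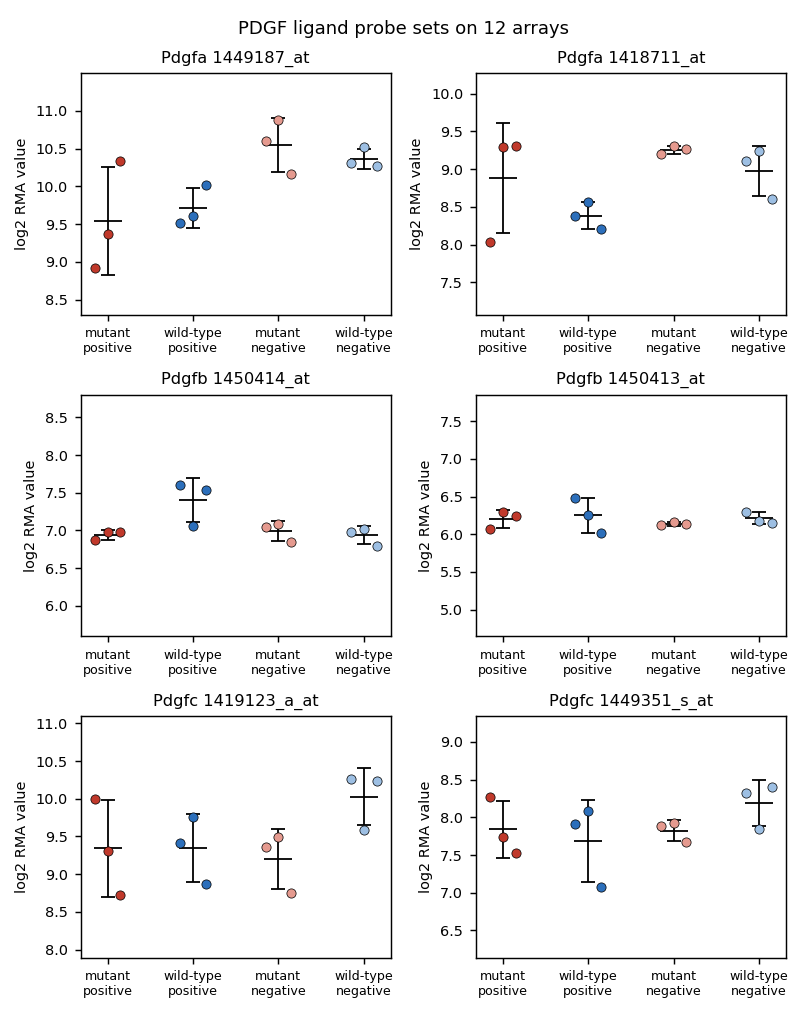
Log2 RMA values (vertical axis) of the 6 ligand probe sets in the 4 groups (horizontal axis), 1 point per array with replicates 1 to 3 from left to right, and mean ± SD as bars. Each panel has its own axis range. Pdgfb 1450414_at has its highest mean in wild-type positive cells, at 7.40, though mutant negative array 2, at 7.09, is above wild-type positive array 2, at 7.07, and mutant positive array 1, the leftmost red point, is the lowest of its group for Pdgfa 1418711_at and the highest for Pdgfc 1419123_a_at.

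Counted over all 11 probe sets, 3 were called higher and 0 lower in mutant than in wild-type positive cells, where 4.42% of all probe sets were called, 2.08% as higher and 2.34% as lower. All 3 were receptor probe sets, from Pdgfra and Pdgfrb. The arrays did not overlap for 5 of the 11, 4 of them higher, against 21.8% of all probe sets, 10.6% as higher and 11.2% as lower. The median difference was 0.50 log2 over the 11 and -0.01 over all probe sets.

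Between wild-type positive and negative cells, 0 of the 11 were called higher and 2 lower, both from Pdgfra, where 4.48% of all probe sets were called, 2.76% as higher and 1.72% as lower. The arrays did not overlap for 6 of the 11, 5 of them lower (all 3 Pdgfra and both Pdgfa probe sets), against 21.2% of all probe sets, 10.2% as higher and 11% as lower. The median difference was -0.50 log2, against -0.01 over all probe sets.

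Between mutant positive and negative cells, 2 were called higher, both from Pdgfrb, where 2.62% of all probe sets were called, 1.55% as higher and 1.07% as lower. With replicate number within genotype as a fixed block, in both genotypes, the count was 4, with the bright Pdgfra probe sets added. The arrays did not overlap for 4 of the 11, all higher, against 16.1% of all probe sets, 6.88% as higher and 9.24% as lower. The median difference was 0.14 log2, against -0.03 over all probe sets.

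Between mutant and wild-type negative cells, 0 of the 11 were called, and 0% of all probe sets were (limma), with 2119 of 45037 at an unadjusted p under 0.05. For 3 of the 11 the arrays did not overlap, all lower, against 10.9% of all probe sets, 6.34% as higher and 4.56% as lower. The interaction was called for 2 of the 11, both from Pdgfra, where 1.27% of all probe sets were called, 0.38% as higher and 0.893% as lower.

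**Figure D3:**
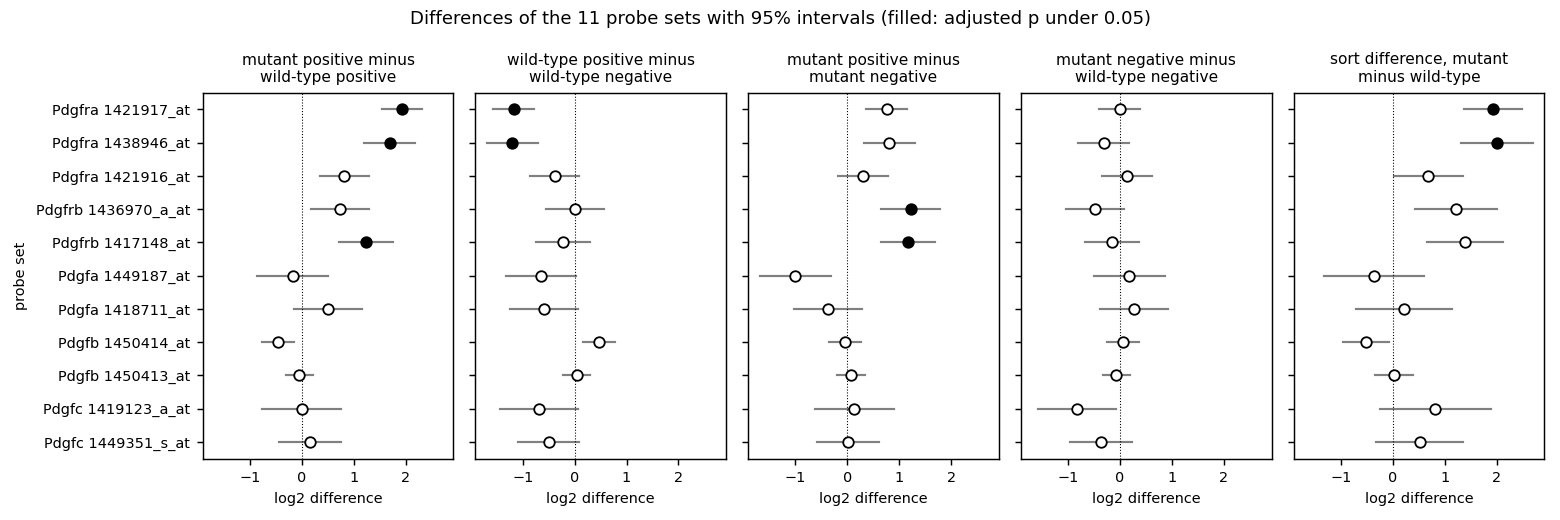
Log2 differences (horizontal axes) of the 11 probe sets (vertical axis) in the 5 comparisons, with 95% intervals from limma. Filled points passed an adjusted p under 0.05. Pdgfra is filled at 1.93 and 1.69 for mutant minus wild-type positive cells and at -1.18 and -1.20 for wild-type positive minus negative cells, while no ligand point is filled.

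The genes with profiles closest to the receptors were found by the root mean square difference of centred log2 values over the 12 arrays, using each gene's brightest probe set. For Pdgfra these were Dlg3 (0.29 log2), Pdlim4 (0.29) and Ephb1 (0.30), beside a standard deviation of Pdgfra itself of 0.75 log2 over the arrays. Dlg3 encodes a membrane scaffold protein, Pdlim4 a PDZ and LIM domain protein and Ephb1 a receptor for ephrins. Mutant positive minus wild-type positive means were 1.52 log2 for Dlg3, 1.86 for Pdlim4 and 1.26 for Ephb1, and wild-type positive minus negative means were -1.06, -0.87 and -0.69 in the same order. The closest to Pdgfrb were Ptgfrn (0.23 log2), a membrane protein, Kalrn (0.24) and Bmp5 (0.25), a secreted BMP ligand, beside a standard deviation of 0.54 log2 for Pdgfrb. All 12 arrays enter each likeness, so the group structure is part of it, and it is a description with no test.

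**Figure D4:**
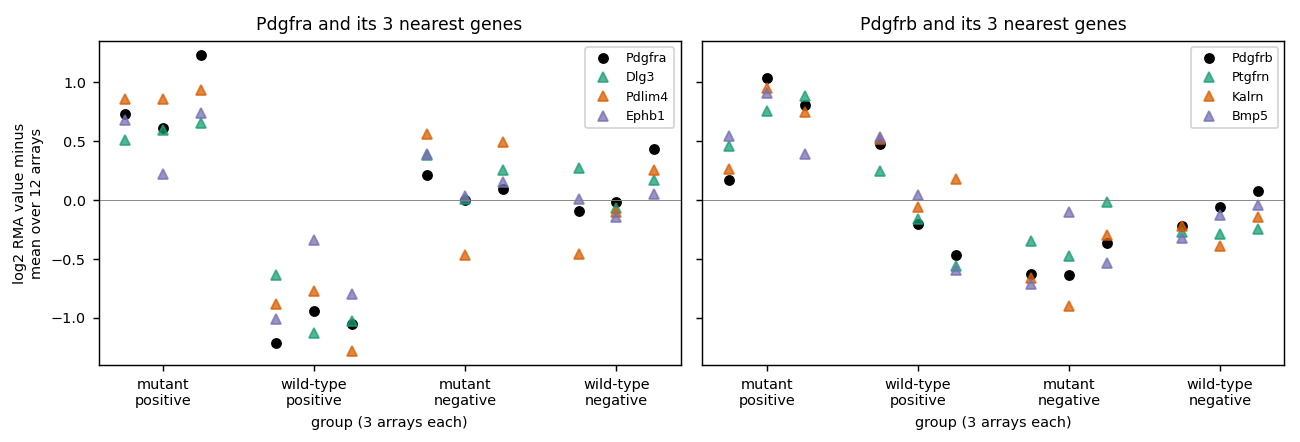
Log2 RMA values minus each gene's mean over the 12 arrays (vertical axis) for Pdgfra (left) and Pdgfrb (right), as circles, and for the 3 genes nearest to each, as triangles, by group (horizontal axis) with replicates 1 to 3 from left to right. For Pdgfra and its neighbours the mutant positive arrays are above and the wild-type positive arrays below 0.

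Other genes of the pathway were read at their brightest probe sets. Pdgfd, a ligand of PDGF receptor beta, had 7.60, 7.45 and 6.93 in mutant positive cells, against 7.03, 6.98 and 7.09 in wild-type positive cells. The groups overlapped, and Pdgfd was not called in any comparison (limma, adjusted p 0.431 to 0.976), nor was the receptor-like gene Pdgfrl (0.561 to 0.991). Of the related receptor genes Kit, Csf1r and Flt3, 0 of 3 were called in any comparison. Of all genes, at most 3.84% were called higher and at most 3.11% lower in a comparison.

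Of 10 genes for ligand processing and binding, 2 were higher and 0 lower in the positive cells of wild types than in their negative cells, beside 3.84% of all genes called higher, with a list median of 0.22 log2 against -0.02 over all genes. They were Sparc, a matrix protein that binds PDGF (1.46 ± 0.19 log2; limma, adjusted p = 0.000971), and Nrp1, a co-receptor best known for VEGF and semaphorins (1.12 ± 0.18; 0.00486). Both were also the 2 called in mutant positive against negative cells, Sparc by 1.24 ± 0.19 log2 (adjusted p = 0.00551) and Nrp1 by 1.67 ± 0.18 (0.00108), beside 2.37% of all genes called higher, with a list median of 0.49. Between mutant and wild-type positive cells 0 of the 10 were called, with a list median of -0.03 against 0.01 over all genes.

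Of 35 signal transducers 27 were measured here. In mutant against wild-type positive cells 4 fell and 0 rose, beside 3.11% of all genes called lower, with a list median of -0.11 log2. The Src-family kinase gene Fyn fell by 1.31 ± 0.15 log2 (limma, adjusted p = 0.000436), the related Yes1 by 1.58 ± 0.24 (0.00341) and Gab1, a docking protein of receptor tyrosine kinases, by 1.19 ± 0.17 (0.00274). Fyn had 8.30, 8.46 and 8.17 in mutant positive cells, against 9.76, 9.41 and 9.68 in wild-type positive cells, with no overlap. In wild-type positive against negative cells 6 of the 27 rose and 0 fell, beside 3.84% of all genes called higher, with Gab1 at 1.55 ± 0.17 log2 (adjusted p = 0.000331). For Fyn the interaction also passed (-1.17 ± 0.21 log2, adjusted p = 0.0192), as the 1 transducer called there, beside 1.27% of all genes called lower and 0.594% higher. Between mutant positive and mutant negative cells 0 of the 27 were called, beside 2.37% of all genes called higher and 1.74% lower. Between mutant and wild-type negative cells 0 of the 27 and 0% of all genes were called.

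Markers of several cell types also differed between the groups, some in the direction of the receptors and some in the other. Of all genes, 3.16% were called higher and 3.11% lower in mutant than in wild-type positive cells, and 2.37% higher and 1.74% lower in mutant positive than in mutant negative cells. Of 12 lateral plate and heart markers 10 were higher in mutant than in wild-type positive cells and 0 lower (median 1.41 log2, against 0.01 over all genes), and their mean level per array was 10.42 to 10.48 log2 for mutant positive cells, 8.90 to 9.19 for wild-type positive cells, 8.89 to 9.02 for mutant negative cells and 9.14 to 9.47 for wild-type negative cells. Of 10 mural and smooth muscle markers 3 were higher and 0 lower (median 0.24), with means of 8.41 to 8.54 for mutant positive cells, 7.60 to 8.05 for wild-type positive cells, 7.58 to 7.79 for mutant negative cells and 7.67 to 7.78 for wild-type negative cells. The same 2 lists had 10 of 12 and 3 of 10 higher in mutant positive than in mutant negative cells. Of 13 endothelial markers 11 were lower in mutant than in wild-type positive cells, with means of 7.63 to 7.66 in mutant positive, against 10.29 to 10.46 in wild-type positive cells. Of 7 primitive erythroid markers 6 were lower, with means of 6.26 to 6.36 against 11.04 to 11.66 in the same order. In mutant positive against mutant negative cells 2 of the 13 endothelial markers were higher and 0 lower (median 0.10 log2). Of the 7 erythroid markers 0 were called higher and 0 lower there.

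Between positive and negative cells of wild types, 3.84% of all genes were called higher and 2.65% lower. Of the 13 endothelial markers 13 were higher in wild-type positive cells and 0 lower (median 3.17 log2). Of the 7 primitive erythroid markers 6 were higher and 0 lower (median 4.80 log2). Of the 12 lateral plate and heart markers 1 was lower in wild-type positive cells and 0 higher (median -0.22 log2). Of the 10 mural and smooth muscle markers 0 were called there. Of 10 paraxial mesoderm markers, another tissue known for Pdgfra, 5 were lower and 0 higher in wild-type positive than in negative cells (median -1.15 log2), with means of 8.13 to 8.25 in wild-type positive, against 9.17 to 9.64 in wild-type negative cells. In mutant positive against wild-type positive cells 1 of these 10 was higher and 0 lower. In mutant positive against mutant negative cells 1 was higher and 3 lower (median -0.49 log2), the direction opposite to Pdgfra. Their means were 8.31 to 8.65 in mutant positive, against 8.87 to 9.44 in mutant negative cells. Of 6 neural markers 4, and of 6 epithelial markers 4, were lower in wild-type positive than in negative cells, with 0 higher in either list. In mutants the same comparison gave 6 of 6 and 4 of 6 lower, with 1 epithelial marker higher. Of 6 yolk sac endoderm markers 1, and of 6 extraembryonic endoderm and trophoblast markers 2, were lower in wild-type positive cells, with 0 and 1 higher. An array value has no true zero, so no marker can be given as absent. The part of these cell types in the receptor values was not tested.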

How the data were processed

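The authors deposited log2 expression values made with RMA, per the submitters' processing notes, which summarises probes into probe sets and normalises between arrays. Its version and settings were not given in the sources used here. Of 45101 probe sets, 64 array controls were left out. The platform table gave 1 symbol for 34945 probe sets, several for 932 and no entry for 9160. All 11 member probe sets had the symbol of the RefSeq table (GRCm38.p6).

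A linear model of the 4 groups, with 8 residual degrees of freedom, was fitted to the log2 values with limma (version 3.58.1, R 4.3.3) and moderated by eBayes. P-values are two-sided and were adjusted by Benjamini-Hochberg over 45037 probe sets, separately in each of 5 comparisons, and an adjusted p under 0.05 counted as called. For other genes the brightest probe set was read. The members and lists were chosen with earlier results of these data known. Values are given for all member probe sets, for up to 3 called pathway genes per comparison and direction with the smallest p, and for the 3 closest profiles per called receptor or ligand. In mutants, deviations from group means correlated between positive and negative arrays of equal number (0.659, 0.414 and 0.520 across probe sets), so these numbers were read as pairs, which the labels do not state. Alternatives covered normalisation, filters, probe set summaries, blocks and left-out arrays. The code was tested on simulated data. The number of arrays limits the precision.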

Additional observations from a re-analysis of the deposited data

Results flagged for a closer look

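For Pdgfra at 1421917_at, positive minus negative cells was 0.76 log2 in mutants and -1.18 log2 in wild types. The interaction, mutant minus wild-type value, was 1.93 log2 (limma, adjusted p = 0.00265), and at 1438946_at it was 2.01 log2 (adjusted p = 0.00892). It shares the positive arrays with the comparison of mutant and wild-type positive cells and is not independent of it. At both probe sets positive cells were above negative cells for all 3 replicate numbers in mutants and below them for all 3 in wild types. Both interactions stayed past the threshold under each alternative run for them. The adjusted p (limma) was 0.000642 to 0.0162 over 25 settings at 1421917_at and 0.00212 to 0.049 over 24 settings at 1438946_at.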

How the results depend on the processing

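For the 11 probe sets in 5 comparisons, 27 alternative settings gave 1362 values, of which 15 lost and 26 gained a call and 2 changed sign, leaving aside uncalled values smaller than their own standard error. Those 2 were Pdgfa at 1418711_at in mutant positive minus negative cells, 0.042 log2 without mutant positive array 1 and 0.014 log2 without both mutant arrays numbered 1. It was -0.38 log2 with all arrays and -0.59 to 0.04 with single arrays left out.

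Among the 11, the brightest probe set per gene, fewer by construction, gave 1 higher for mutant over wild-type positive cells (3 otherwise), 1 lower for wild-type positive against negative cells (2) and 1 interaction (2), and the mean per gene gave 1 lower for the wild types. The mean per gene also called Pdgfra within mutants (0.62 log2, limma, adjusted p = 0.0315) and the interaction of Pdgfrb (1.31 log2, 0.0429). Only the 2 groups in the fit gave 1 higher within mutants (2). Without both wild-type arrays numbered 1, 1 was lower in wild-type positive cells. Leaving out single arrays gave 2 to 4 higher and 0 to 1 lower for mutant over wild-type positive cells, 0 to 1 higher and 2 lower within wild types, and 0 to 3 higher and 0 to 1 lower within mutants.

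Over all probe sets, calls for mutant against wild-type positive cells (1989) were 960 with only these groups in the fit, 1024 with a change of at least 1 log2, 1303 without both wild-type and 1313 without both mutant arrays numbered 1, and 1304 to 2095 with single arrays left out. Within wild types (2018) they were 1159 with at least 1 log2, 962 without the arrays numbered 1, and 1272 to 2013 with single arrays left out. Within mutants (1181) they were 565 with only these groups, 744 with at least 1 log2, 657 without the arrays numbered 1, and 699 to 1191 with single arrays left out. Between negative cells single arrays left out gave 0 to 1, and for the interaction (573) 385 to 626.

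The replicate block within genotype covered the numbers of both genotypes. It gave 1848 calls (fixed) or 1993 (random) within mutants, 4 of them among the 11 in either fit, and 878 or 1060 for the interaction. Wild-type numbers correlated at 0.198, 0.0696 and 0.167 and were not read as pairs, though both wild-type arrays numbered 1 shared high Eif2s3y. The random block gave 3252 calls within wild types. With the fixed block the wild-type sort difference of Pdgfra stayed past the threshold at 1421917_at (limma, adjusted p = 0.00453) and 1438946_at (0.00721). With the random block the interaction of Pdgfrb at 1417148_at passed (adjusted p = 0.0448). The fixed block gives no value between genotypes, and the fit of 2 groups none for the interaction.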
